A study of Rattus norvegicus with 18 samples.

Results

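Genes of the fibrous heart matrix were followed in 18 rat hearts: Col1a1 and Col1a2, which encode both chains of type I collagen, Col3a1, which encodes type III collagen, Fn1, which encodes fibronectin, and Lox, which encodes lysyl oxidase. They were chosen by identifier as ENSRNOG00000003897 (Col1a1), ENSRNOG00000011292 (Col1a2), ENSRNOG00000003357 (Col3a1), ENSRNOG00000014288 (Fn1) and ENSRNOG00000014426 (Lox), and all 5 of them were present among the 32545 genes of the deposited table. The names come from the rule that chose the genes, since the table holds identifiers without names. Each passed the filter on low values, at least 1 TPM in at least 6 of 18 libraries, as did 14732 genes in all.

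The hearts came from 3 groups of 6 male rats of the outbred Wistar strain. DOX+AICAR rats received weekly intravenous doxorubicin at 3 mg/kg for 5 injections, with subcutaneous AICAR at 0.5 g/kg. DOX+saline rats received the same doxorubicin course with subcutaneous saline. Saline rats received intravenous saline and no doxorubicin; whether they also had subcutaneous saline is not clear from the design text, and no group with AICAR alone was analysed here. All rats weighed about 250 g at the start, and no age is given. Doxorubicin is an anthracycline cancer drug that injures heart muscle, and AICAR is a nucleoside that activates the energy-sensing kinase AMPK. The labels name the tissue as heart without a chamber, and the excised hearts were frozen at once.

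Fibroblasts make most of the fibrillar collagen of the heart. Type I and type III chains fold into triple helices that are secreted, trimmed and packed into fibrils, which carry load between muscle cells. Fibronectin is laid down early in a healing matrix and serves as a scaffold on which collagen assembles. Lysyl oxidase oxidises lysines in collagen and elastin, so that neighbouring molecules become covalently crosslinked and the matrix stiffens.

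Levels are in TPM, transcripts per 1000000, for which reads are first taken per base of gene and then put on the same total in every library, so that a level is a share of the library's RNA and levels of different genes can be compared. Whole reads recovered from the table came to 20.57 to 31.32 M per library (M, 1000000). Within a library, Col3a1 had 22745 to 112047 reads over a counted length of 4765 bp, Col1a1 9728 to 48182 reads over 5825 bp, Col1a2 7587 to 28907 reads over 4475 bp, Fn1 2204 to 14132 reads over 8406 bp and Lox 280 to 2004 reads over 4807 bp. Counting error was thus at most 5.98%, for Lox in its lowest library, and below the spread between animals. In bulk tissue, more cells of a type and more RNA per cell cannot be told apart. Libraries differed in the number of genes detected, with 19919 to 20537 genes above 0 in DOX+AICAR, 20215 to 21109 in DOX+saline and 18058 to 18771 in saline. The part of this difference in the results on the 5 genes was not tested.

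All 5 genes were higher in DOX+saline than in saline hearts, by 1.59-fold for Col3a1 to 2.73-fold for Lox. None of the 5 was called different between DOX+AICAR and DOX+saline hearts, and each estimated fold lay above 1, from 1.12-fold for Lox to 1.51-fold for Col3a1. Against saline, DOX+AICAR hearts were higher for all 5, by 2.21-fold for Col1a2 to 3.11-fold for Fn1. Of all 14732 genes, 38.0% were called higher in DOX+saline than in saline, and 34.8% in DOX+AICAR than in saline. Between DOX+AICAR and DOX+saline 1.33% were called, so that no call among 5 genes is close to that share. The group means of each of the 5 genes had the same order, with DOX+AICAR highest, DOX+saline between and saline lowest. The neighbours DOX+AICAR and DOX+saline did not differ past the threshold for any of the 5. Together the 5 genes held 0.228 ± 0.0578% of the TPM total in DOX+AICAR, 0.161 ± 0.0536% in DOX+saline and 0.0915 ± 0.00946% in saline (SD, n = 6 each).

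**Figure D1:**
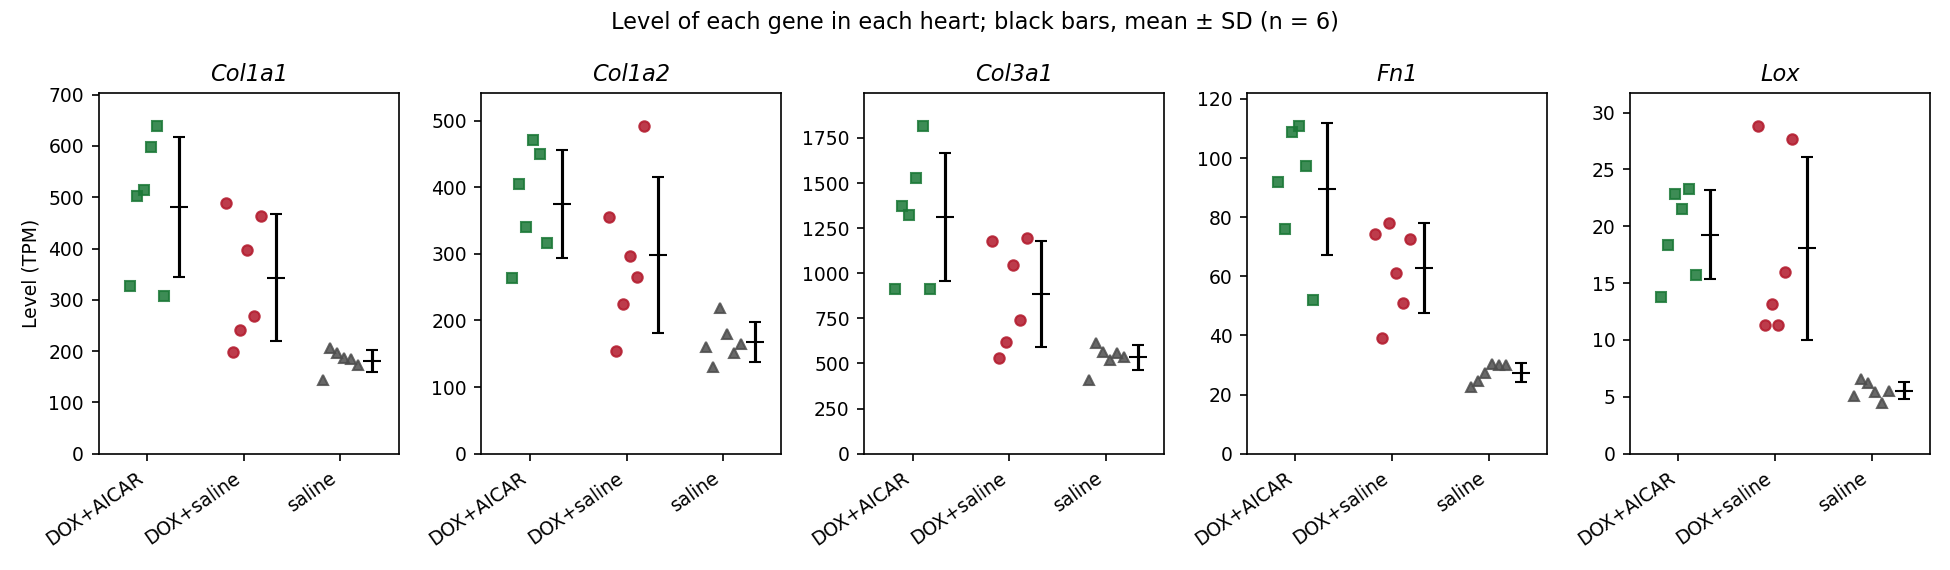
Level of each gene in TPM (vertical axis, from 0) in each of 6 hearts of DOX+AICAR, DOX+saline and saline, with points in order of animal number and black bars for the mean ± SD. For Fn1 and Lox all doxorubicin hearts lie above all saline hearts, while for the collagens DOX+saline animal 2 lies among the saline hearts.

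Col1a1 codes for the more abundant chain of type I collagen, the main load-bearing fibril of the heart. It had 308 TPM at the lowest, 508 at the median and 638 at the highest in DOX+AICAR hearts, 198, 333 and 490 TPM in DOX+saline hearts, and 143, 185 and 205 TPM in saline hearts. All DOX+AICAR hearts lay above the highest saline heart, and so did 5 of the 6 DOX+saline hearts; the exception, animal 2 at 198 TPM, lay inside the saline range. Col1a1 averaged 343 ± 123 TPM in DOX+saline and 181 ± 21.8 TPM in saline (SD, n = 6), a log2 fold change of 0.84 (SE 0.22, limma adjusted p = 0.0036).

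Col1a2 codes for the other type I chain, which joins the Col1a1 product in the same triple helix. Its levels were 264 TPM at the lowest, 373 at the median and 470 at the highest in DOX+AICAR, 154, 281 and 492 TPM in DOX+saline, and 130, 162 and 219 TPM in saline. The highest of all 18 values belonged to DOX+saline animal 6, so the DOX+AICAR hearts lay wholly within the DOX+saline range. Col1a2 averaged 298 ± 117 TPM in DOX+saline and 167 ± 30.2 TPM in saline (SD, n = 6), a log2 fold change of 0.76 (SE 0.22, limma adjusted p = 0.0063). Its promoter is printed because Col1a2 is the single one of the 5 with an entry in the RefSeq promoter table used (build GRCr8, chr4:33518307-33518422, plus strand). Whether this promoter had a part in the higher level was not tested. The stretch starts 250 bases before the annotated start, and capitals mark the matches found to a CCAAT box, read here as its complement, and to a TATA box.
Col1a2: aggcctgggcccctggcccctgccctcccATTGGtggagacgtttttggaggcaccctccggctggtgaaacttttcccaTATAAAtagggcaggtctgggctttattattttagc

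The letters CCAAT and TATAAA were searched on both strands, as was GGGCGG, a GC box, and their matches do not overlap. In this window, CCAAT matched on the minus strand 221 to 217 bases before the annotated start, and TATAAA on the plus strand 170 to 165 bases before it. Of 33469 promoter windows of 300 bases, 37.5% hold CCAAT, 14.2% hold TATAAA and 33.1% hold GGGCGG, which is not in the Col1a2 window. A match describes letters and is not a measured binding site.

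Col3a1 codes for type III collagen, which forms finer and more extensible fibrils, often together with type I. It was the most abundant of the 5 genes in every heart, ranking number 76 of 14732 genes by mean level in DOX+AICAR, 132 in DOX+saline and 287 in saline. Levels were 912 TPM at the lowest, 1348 at the median and 1815 at the highest in DOX+AICAR, 530, 893 and 1193 TPM in DOX+saline, and 409, 548 and 613 TPM in saline. As with Col1a1, a single DOX+saline heart, animal 2, fell below the highest saline heart. Col3a1 averaged 885 ± 292 TPM in DOX+saline and 534 ± 68.6 TPM in saline (SD, n = 6), a log2 fold change of 0.67 (SE 0.21, limma adjusted p = 0.0105), the smallest of the 5.

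Fn1 codes for fibronectin, a dimeric glycoprotein that binds integrins and collagen. Levels were 52.1 TPM at the lowest, 94.5 at the median and 111 at the highest in DOX+AICAR, 39.2, 66.8 and 77.9 TPM in DOX+saline, and 22.5, 28.5 and 30.3 TPM in saline. Neither doxorubicin group overlapped with saline. Fn1 averaged 62.7 ± 15.2 TPM in DOX+saline and 27.4 ± 3.29 TPM in saline (SD, n = 6), a log2 fold change of 1.13 (SE 0.18, limma adjusted p = 4.07e-05).

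Lox, the crosslinking enzyme, was the scarcest of the 5 and had the largest fold change of them in DOX+saline. Levels were 13.8 TPM at the lowest, 19.95 at the median and 23.3 at the highest in DOX+AICAR, 11.3, 14.6 and 28.8 TPM in DOX+saline, and 4.48, 5.45 and 6.59 TPM in saline. The DOX+saline hearts split, with animals 1 and 6 at 28.8 and 27.7 TPM and the other 4 at 11.3 to 15.98 TPM, so that the DOX+AICAR values fell within the DOX+saline range and both groups lay above saline. Lox averaged 18.05 ± 8.08 TPM in DOX+saline and 5.55 ± 0.756 TPM in saline (SD, n = 6), a log2 fold change of 1.45 (SE 0.21, limma adjusted p = 1.61e-05).

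Read against the whole table, 5 of 5 genes called higher in DOX+saline stands beside a background in which 58.0% of 14732 genes were called and 38.0% were called higher. The median log2 fold change of the 5 was 0.84, beside 0.10 over all genes tested. All DOX+saline hearts lay above all saline hearts for 2 of the 5 (Fn1 and Lox), as they did for 21.1% of all genes. Lox was exceeded in log2 fold change by 3.07% of all genes, Fn1 by 5.31%, Col1a1 by 9.1%, Col1a2 by 11.1% and Col3a1 by 13.03%.

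The doxorubicin calls of Col1a2 and Col3a1 were lost in 1 alternative set, made by leaving out 2 high hearts. DOX+saline animals 1 and 6 held the highest 2 levels of that group for Col1a1, Col1a2, Col3a1 and Lox. Leaving both out, an alternative set with earlier results known, lowers the group mean by construction. It therefore cannot show whether the calls leaned on these hearts. Without them Col1a1 (log2 fold change 0.57, limma adjusted p = 0.0367), Fn1 (1.002, limma adjusted p = 0.000687) and Lox (1.09, limma adjusted p = 1.8e-05) were still called. Col1a2 (0.47, limma adjusted p = 0.0527) and Col3a1 (0.42, limma adjusted p = 0.0952) were not. Leaving out any single animal kept all 5 called, with Col3a1 weakest at a limma adjusted p of 0.0293. Omitting a DOX+AICAR animal changes only the spread and adjustment of this comparison, and not its folds.

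**Figure D2:**
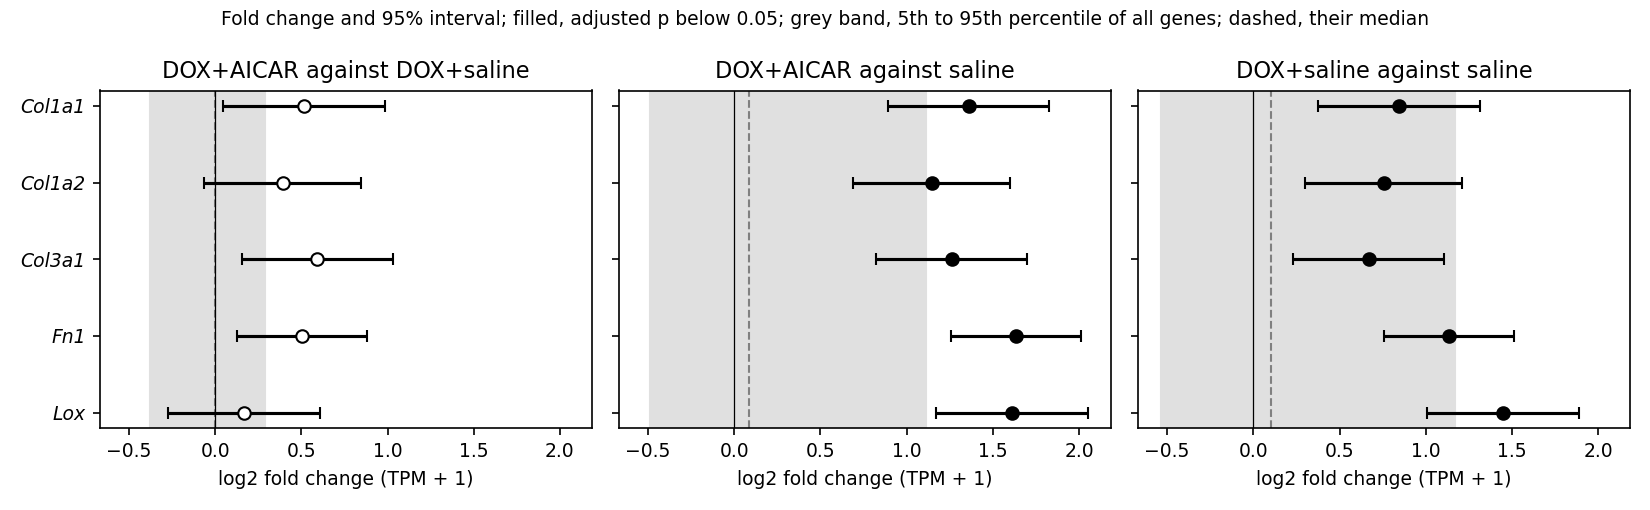
Log2 fold change of TPM + 1 (horizontal axis) with its unadjusted 95% interval for each gene in the 3 comparisons, filled where called and open where not. The grey band spans the 5th to 95th percentile of all 14732 genes and the dashed line their median; in DOX+AICAR against DOX+saline all symbols are open, and all but Lox lie right of the band.

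Comparing DOX+AICAR with DOX+saline hearts asked whether AICAR altered these genes once doxorubicin was given. Col3a1 averaged 1312 ± 353 TPM in DOX+AICAR and 885 ± 292 TPM in DOX+saline (SD, n = 6), with a log2 fold change of 0.59 (SE 0.21, limma adjusted p = 0.148). The 95% interval of this fold ran from 1.11 to 2.04. Intervals are not adjusted for the number of genes tested, while the p-values beside them are. Col1a1 averaged 481 ± 137 TPM in DOX+AICAR and 343 ± 123 TPM in DOX+saline, 1.43-fold with an interval of 1.03 to 1.98 (limma adjusted p = 0.24). Fn1 averaged 89.5 ± 22.2 TPM in DOX+AICAR and 62.7 ± 15.2 TPM in DOX+saline, 1.42-fold with an interval of 1.09 to 1.84 (limma adjusted p = 0.158).

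For each of these 3 genes, 4 of 6 DOX+AICAR hearts lay above the highest DOX+saline heart and the other 2 did not. Col1a2 averaged 374 ± 80.9 TPM in DOX+AICAR and 298 ± 117 TPM in DOX+saline, 1.31-fold with an interval of 0.956 to 1.8 (limma adjusted p = 0.363). Lox averaged 19.3 ± 3.94 TPM in DOX+AICAR and 18.05 ± 8.08 TPM in DOX+saline, 1.12-fold with an interval of 0.827 to 1.52 (limma adjusted p = 0.724). No DOX+AICAR heart exceeded the highest DOX+saline heart for either of them.

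These 0 calls of 5 stand beside 1.33% of all genes called in this comparison and 0.577% called higher. The groups overlapped in all 5, where all DOX+AICAR hearts lay above all DOX+saline hearts for 0.658% of genes. At an unadjusted p below 0.05 there were 3 of the 5 (Col1a1, Col3a1 and Fn1), beside 17.6% of all genes, and voom on the recovered reads also called 0 of the 5. The median log2 fold change of the 5 was 0.50, beside 0.00 (-0.0021) over all genes, and estimates larger than that of Col3a1 were found for 0.896% of genes, of Col1a1 for 1.38%, of Fn1 for 1.44%, of Col1a2 for 2.65% and of Lox for 12.4%. The estimates moved both ways with the libraries used. DOX+saline animals 1 and 6 were the highest of their group for Col1a1, Col1a2, Col3a1 and Lox. Leaving them out therefore raises these estimates by construction, and this set cannot test an effect of AICAR. Col3a1 was then called (log2 fold change 0.84, limma adjusted p = 0.0464). Col1a1 was then 0.79 (limma adjusted p = 0.0585), Col1a2 0.68 (limma adjusted p = 0.0656) and Lox 0.53 (limma adjusted p = 0.0609). With a weight estimated for each library the log2 fold changes were smaller, at 0.27 for Col1a1, 0.13 for Col1a2, 0.37 for Col3a1 and 0.38 for Fn1, and Lox had the opposite sign (-0.15, limma adjusted p = 0.702). Without DOX+saline animal 2, the lowest of its group for all 5 genes, Col1a2 was 0.22 and Lox 0.0616, against 0.39 and 0.17 with all animals. The Lox estimate also moved by over 1.5 times without DOX+AICAR animal 7 (0.25) or 11 (0.11) and without DOX+saline animal 1 (0.32), 3 (0.10), 4 (0.0617) or 6 (0.31).

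DOX+AICAR against saline gave the widest separation, and shares its control hearts with the doxorubicin comparison. The log2 fold changes were 1.36 for Col1a1 (SE 0.22, limma adjusted p = 6.88e-05), 1.15 for Col1a2 (SE 0.22, limma adjusted p = 0.000259) and 1.26 for Col3a1 (SE 0.21, limma adjusted p = 7.12e-05). They were 1.64 for Fn1 (SE 0.18, limma adjusted p = 1.13e-06) and 1.61 for Lox (SE 0.21, limma adjusted p = 6.59e-06). The 5 of 5 genes called higher stand beside 53.3% of all genes called and 34.8% called higher. In all 5 genes every DOX+AICAR heart lay above every saline heart, as in 22.9% of all genes.

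The balance of directions over all genes depended on the scaling, while the 5 genes did not change call with it. In DOX+saline against saline 5595 genes were higher and 2943 lower on the deposited values, 4061 and 4399 after median-of-ratios scaling, and 3424 and 4919 with quantile normalization, where the median log2 change over all genes was -0.06. In DOX+AICAR against DOX+saline the counts were 85 and 111 as deposited, 131 and 121, and 165 and 156. In DOX+AICAR against saline they were 5133 and 2717 as deposited, 3750 and 4162, and 3207 and 4703. With median-of-ratios factors the DOX+saline log2 fold changes were 0.72 for Col1a1, 0.63 for Col1a2, 0.55 for Col3a1, 1.02 for Fn1 and 1.34 for Lox, all called.

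Ratios of a pair of genes within a heart do not depend on how its library was scaled, and 4 such ratios were compared in 3 comparisons, 12 tests in all. Type I was set against type III first, because the mix of these collagens bears on how stiff the matrix is. The ratio of Col1a1 to Col3a1 was 0.365 ± 0.0206 in DOX+AICAR, 0.385 ± 0.0182 in DOX+saline and 0.34 ± 0.0144 in saline (SD, n = 6). Every DOX+saline heart, at 0.362 to 0.415, lay above every saline heart, at 0.32 to 0.358, a 1.13-fold higher ratio (log2 difference 0.18, two-sided exact permutation p = 0.00216, the smallest this test can give, adjusted p = 0.013). Without DOX+saline animals 1 and 6 the difference was 0.15 (exact permutation, adjusted p = 0.0571). The DOX+saline hearts kept still all lay above every saline heart. Fewer hearts give the test fewer assignments, so the smallest p it can give is larger. In DOX+AICAR the ratio was 0.95-fold that of DOX+saline (log2 difference -0.08, exact permutation p = 0.11, adjusted p = 0.166). Against saline it was 1.07-fold (log2 difference 0.10, exact permutation p = 0.039, adjusted p = 0.117), with 3 of 6 DOX+AICAR hearts above all saline hearts. Without DOX+AICAR animal 12, the lowest of its group, that difference was 0.12 (exact permutation, adjusted p = 0.0455). Leaving out the lowest heart raises the difference by construction, and no other single omission passed the threshold.

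Lox was set against Col1a1 as the crosslinking enzyme against its substrate. The ratio was 0.0411 ± 0.006 in DOX+AICAR, 0.0531 ± 0.0122 in DOX+saline and 0.0308 ± 0.00377 in saline (SD, n = 6). All DOX+AICAR hearts lay above all saline hearts, a 1.34-fold higher ratio (log2 difference 0.42, exact permutation p = 0.00216, adjusted p = 0.013). Adding a pseudocount of 1 to both genes, which weighs on the low Lox values of saline hearts, lowered the difference to 0.25 (exact permutation, adjusted p = 0.123). In DOX+saline 5 of 6 hearts lay above all saline hearts, a 1.68-fold higher ratio (log2 difference 0.75, exact permutation p = 0.013, adjusted p = 0.0519) that missed the threshold after adjustment. The exception was DOX+saline animal 4, at 0.0285, where the other 5 had 0.0545 to 0.0596.

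Animal 4 held the lowest ratio of its group, so leaving it out raises the DOX+saline mean by construction. Without it the difference of DOX+saline from saline was 0.92 (exact permutation, adjusted p = 0.00866). That of DOX+AICAR from DOX+saline was then -0.51 (exact permutation, adjusted p = 0.013), against -0.34 with all animals (exact permutation p = 0.0952, adjusted p = 0.166). Leaving out DOX+AICAR animal 12 changes only the adjustment of the DOX+saline comparison, to 0.0455 by exact permutation.

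No difference passed the threshold in the other ratios. Col1a1 to Col1a2 was 1.27 ± 0.183 in DOX+AICAR, 1.17 ± 0.184 in DOX+saline and 1.11 ± 0.259 in saline (SD, n = 6), with adjusted exact permutation p-values from 0.257 to 0.637. It ranged widely even among saline hearts, from 0.897 to 1.58 in animal 52. Fn1 to Col1a1 was 0.192 ± 0.0495 in DOX+AICAR, 0.196 ± 0.0653 in DOX+saline and 0.152 ± 0.02 in saline, with adjusted exact permutation p-values from 0.166 to 0.974.

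**Figure D3:**
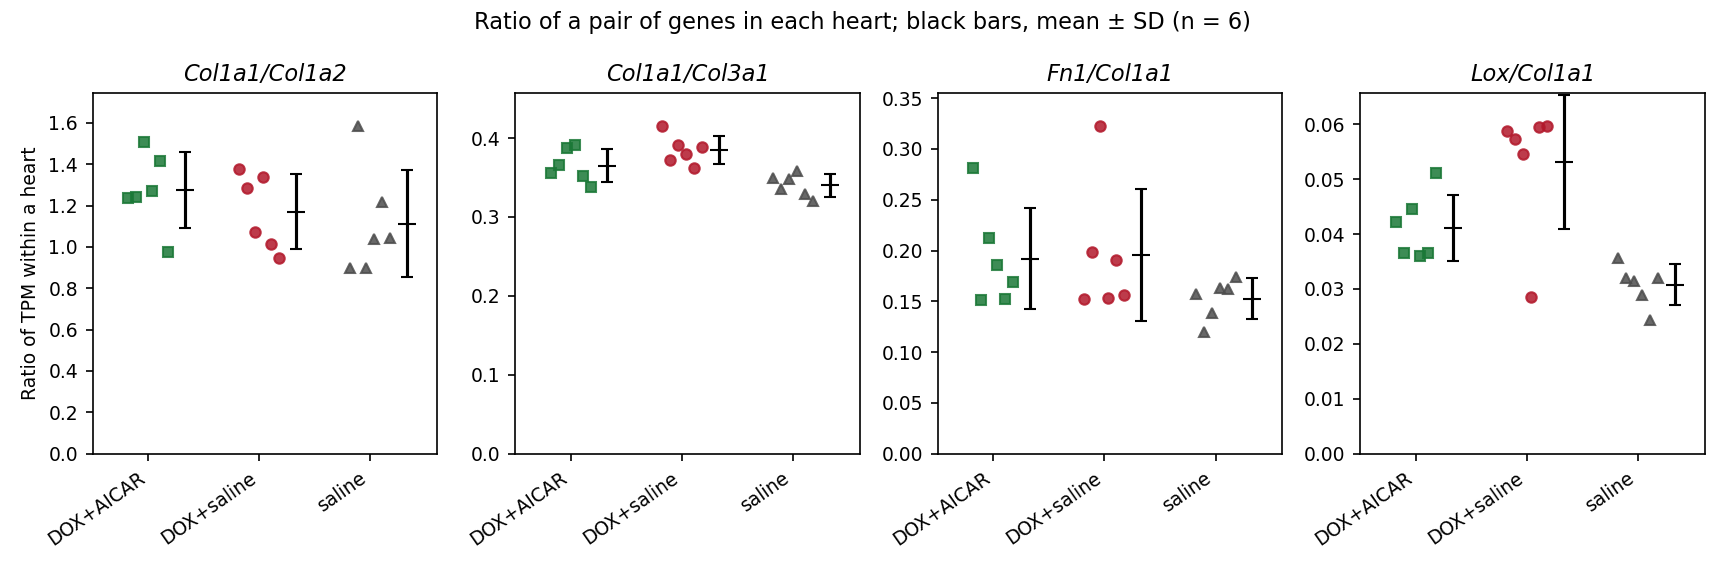
Ratio of the TPM of a pair of genes (vertical axis, from 0) in each of 6 hearts of DOX+AICAR, DOX+saline and saline, with black bars for the mean ± SD. All DOX+saline hearts lie above all saline hearts for Col1a1 to Col3a1, and all DOX+AICAR hearts do for Lox to Col1a1, where DOX+saline animal 4 stands low at 0.0285.

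The 5 genes varied more between animals in the doxorubicin groups than in saline. The coefficient of variation of their levels ranged from 20.4% (Lox) to 28.5% (Col1a1) in DOX+AICAR, from 24.2% (Fn1) to 44.8% (Lox) in DOX+saline and from 11.99% (Fn1) to 18.1% (Col1a2) in saline. The median over all 14732 genes was 10.45% in DOX+AICAR, 12.7% in DOX+saline and 8.83% in saline. The difference in spread was not tested. The same animals tended to stand high or low for several genes. DOX+saline animal 2 was lowest of its group for all 5 genes, and animal 12 was lowest in DOX+AICAR for Col1a1, Col3a1 and Fn1. Animals 10 and 11 held the highest 2 levels of DOX+AICAR for Col1a1, Col1a2 and Col3a1.

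Fibronectin did not follow that order in DOX+saline animal 3, which was highest of its group for Fn1, at 77.9 TPM, and number 5 of 6 for each collagen gene. Correlations of log2(TPM + 1) were taken within each group of 6 hearts, 10 pairs of genes in 3 groups, 30 relations in all. Col1a1 and Col3a1 had a Pearson r of 0.99 in DOX+AICAR (exact permutation p = 0.00417, adjusted p = 0.0417; Spearman rho 0.94, p = 0.0167, adjusted p = 0.125). In DOX+saline r was 0.99 (exact permutation p = 0.00278, adjusted p = 0.0417; rho 0.94, p = 0.0167, adjusted p = 0.125), and in saline 0.95 (exact permutation p = 0.0111, adjusted p = 0.0667; rho 0.83, p = 0.0583, adjusted p = 0.194). Without the 2 hearts farthest from the median of Col1a1, r was 0.95 in DOX+AICAR, 0.99 in DOX+saline and 0.43 in saline. Leaving out the farthest hearts narrows the range of Col1a1, which by itself can lower r.

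Col1a2 followed Col1a1 in the doxorubicin groups, at r = 0.89 in DOX+AICAR (exact permutation p = 0.0181, adjusted p = 0.0677; rho 0.83, p = 0.0583, adjusted p = 0.194; r = 0.77 without the 2 farthest hearts). In DOX+saline r was 0.92 (exact permutation p = 0.00556, adjusted p = 0.0417; rho 0.94, p = 0.0167, adjusted p = 0.125; r = 0.90 without the 2 farthest). In saline r was 0.01 (exact permutation p = 0.974, adjusted p = 0.974; rho -0.03, p = 1; r = 0.74 without the 2 farthest). Col1a2 and Col3a1 had r = 0.93 in DOX+saline (exact permutation p = 0.00139, adjusted p = 0.0417; rho 1, p = 0.00278, adjusted p = 0.0833; r = 0.97 without the 2 farthest). These and the Col1a1 pairs named above were the 4 of 30 relations with an adjusted Pearson p below 0.05, and no Spearman p passed after adjustment.

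Lox and Col1a1 had r = 0.91 in DOX+AICAR (exact permutation p = 0.0181, adjusted p = 0.0677; rho 0.89, p = 0.0333, adjusted p = 0.167), and 0.59 without the 2 farthest hearts. In DOX+saline r was 0.75 (exact permutation p = 0.113, adjusted p = 0.26; rho 0.83, p = 0.0583, adjusted p = 0.194; r = 0.51 without the 2 farthest). Fn1 had its pairs with the collagens at r = 0.35 to 0.68 in DOX+AICAR, 0.60 to 0.69 in DOX+saline and 0.29 to 0.44 in saline, none of them past the threshold. Without the 2 hearts farthest from the median of the collagen, r was 0.14 to 0.48 in DOX+AICAR. In DOX+saline it was then 0.11 with Col1a1, 0.02 with Col1a2 and 0.96 with Col3a1, and in saline -0.76, 0.26 and -0.73. Spearman's rho for these pairs was 0.60 to 0.77 in DOX+AICAR, 0.37 to 0.43 in DOX+saline and -0.14 to 0.43 in saline. In DOX+saline and saline, r of Fn1 with Col1a1 thus depended on which hearts were used, and only 4 remained. Animal 3, high in Fn1, was among the DOX+saline hearts left out with Col3a1 but not with Col1a1. Genes of 1 heart share its library and scale.

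**Figure D4:**
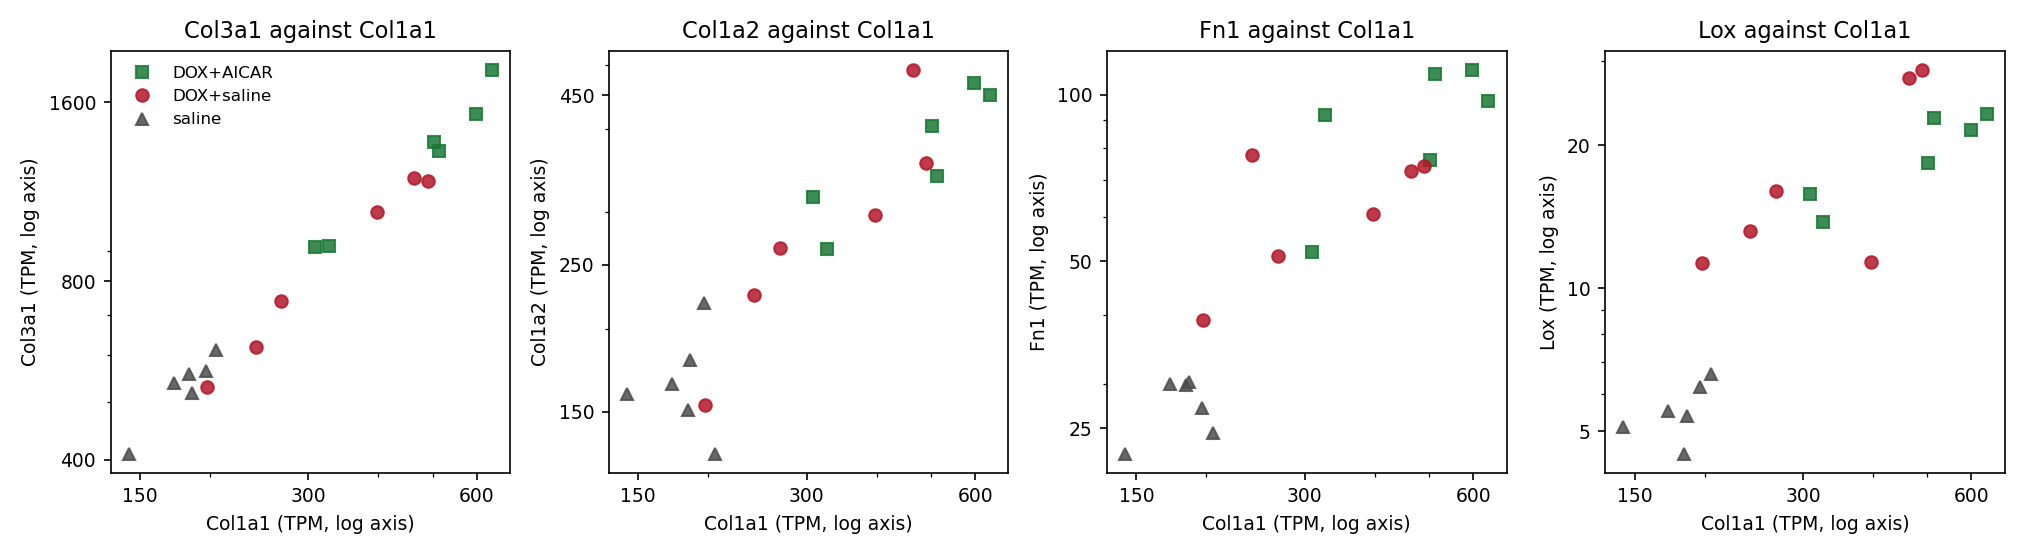
Levels of Col3a1, Col1a2, Fn1 and Lox (vertical log axes, TPM) against Col1a1 (horizontal log axis, TPM) in each of 18 hearts, coloured by group. Col3a1 rises with Col1a1, with every DOX+saline heart at a higher Col1a1 to Col3a1 ratio than every saline heart. Fn1 in DOX+saline animal 3 and Lox in DOX+saline animal 4 stand off the other hearts of their group.

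Among all genes tested, likeness was measured as Pearson r over the 18 hearts after each group's mean was taken out. By this measure Col3a1 was the nearest of all genes to Col1a1, and Col1a1 the nearest to Col3a1 (r = 0.99). Col1a2, Fn1 and Lox were each nearest to a gene outside the 5, at r = 0.90, 0.92 and 0.94. Seen from Col1a1, Col1a2 was number 331 in likeness, Lox number 568 and Fn1 number 1436. The 2 genes outside the 5 with the highest mean likeness to them were ENSRNOG00000003736 (mean r = 0.84) and ENSRNOG00000002358 (mean r = 0.84), to which no name is attached here. ENSRNOG00000003736 averaged 103 ± 20.6 TPM in DOX+AICAR, 83.1 ± 18.7 TPM in DOX+saline and 49.2 ± 3.55 TPM in saline (SD, n = 6). ENSRNOG00000002358 averaged 104 ± 11.4 TPM in DOX+AICAR, 98.7 ± 18.05 TPM in DOX+saline and 68.1 ± 4.68 TPM in saline.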

How the data were processed

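Polyadenylated heart RNA was made into strand-specific libraries read from both ends, 1 per animal, per the labels' protocols. The submitters' processing notes list bcl2fastq 2.17.1.14 for conversion of reads, HISAT2 as aligner, Rnor_6.0 as build and featureCounts of Subread 1.5.0 for counting. For the annotation release and the strand setting, the sources used here give nothing. In the RefSeq table used (GRCr8), Sgca overlaps the span of Col1a1 and the pseudogene Rps3a-ps12 that of Lox, so reads of these may not have been kept apart.

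The authors deposited TPM values, which sum to 1000000 in each of 18 libraries. Whole reads were recovered by solving each gene's TPM values for whole-number ratios between libraries. All 20828 genes above 0 in at least 6 libraries were solved within 0.001 reads, and their lengths were whole within 0.05 bp for 100% of them. Reads carry no molecular identifiers, so counting errors cover counting only.

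Genes reaching 1 TPM in 6 or more libraries were tested with limma 3.58.1 (R 4.3.3) on log2(TPM + 1), with a mean per group, a mean-variance trend and 1 shared spread over all 18 libraries. P-values were two-sided and Benjamini-Hochberg adjusted over 14732 genes, with 0.05 as the threshold for a call. The pseudocount of 1 makes log2(TPM + 1) fold changes of low genes too small. Ratios were compared by two-sided exact permutation over all 924 assignments of 12 libraries, adjusted over the 12 tests; correlations used all 720 pairings, adjusted over 30. The fit was tested on simulated data.

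The genes and lists were chosen with earlier results of these data known. All 5 genes are named, with the 2 genes outside them of highest mean likeness. The 6 pathway lists and 10 cell type lists fixed by symbol were not analysed here, as 0 of the 32545 identifiers matched the reference table, so 0 lists were tested, and the tissue label was not checked against markers. Alternatives were the pseudocount, the filter, the scaling, the libraries fitted, library weights, leaving out animals and voom on recovered reads. The labels do not say whether animals were treated or sequenced in batches, and the numbers of saline rats (51 to 56) stand apart from those of doxorubicin rats (1 to 12), so that a difference between cohorts and doxorubicin cannot be told apart.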

Additional observations from a re-analysis of the deposited data

Results flagged for a closer look

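Values here were picked by the gap between an extreme heart and the rest of its group of 6. Of 27 groups of values tested, for the 5 genes and the 4 ratios in 3 groups, 2 were picked, and chance picks about 1 in 20, or 1.35 here.

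DOX+saline animal 3 had a ratio of Fn1 to Col1a1 of 0.322, where the other 5 hearts of its group had 0.152 to 0.198. Its Fn1 was the highest of DOX+saline, at 77.9 TPM, and its Col1a1 was 242 TPM. This heart also had the most genes above 0 of all libraries, 21109.

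DOX+saline animal 4 had a ratio of Lox to Col1a1 of 0.0285, where the other 5 had 0.0545 to 0.0596. Its Lox was 11.3 TPM and its Col1a1 397 TPM. The value lies within the saline range of 0.0244 to 0.0356.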

How the results depend on the processing

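Voom on recovered reads was chosen after seeing the data. No paired analysis was possible because the groups share no animal numbers. In DOX+AICAR against saline all 5 genes were called in all 27 alternatives of the fit. In the main fit 53.3% of all genes were called there, and 58.0% in DOX+saline against saline. Leaving out a heart of the group outside a comparison changes its spread and adjustment, and not its folds. In DOX+saline against saline the 5 genes were called in each alternative except without DOX+saline animals 1 and 6. There 3 were called, and Col1a2 (0.47) and Col3a1 (0.42) were not. Leaving out these high hearts lowers the DOX+saline mean by construction. In DOX+AICAR against DOX+saline that alternative called 1 gene, Col3a1 (0.84). Library weights turned the sign of Lox in that comparison (-0.15) and lowered Col1a1 to 0.27, Col1a2 to 0.13 and Col3a1 to 0.37. Leaving out 1 animal gave 0.22 to 0.55 for Col1a2 and 0.0616 to 0.32 for Lox there, with 0 calls. The number of genes called between DOX+AICAR and DOX+saline was 196, and became 321 with quantile normalization, 16 with only the 12 libraries compared and 1058 with library weights. Leaving out 1 animal gave 36 to 461, and only without DOX+AICAR animals 7 and 8, DOX+saline animal 5 and saline animal 51 did it stay within 1.5 times.

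Among the ratios, Col1a1 to Col3a1 in DOX+saline against saline was 0.15 (log2) without DOX+saline animals 1 and 6, and Lox to Col1a1 in DOX+AICAR against saline was 0.25 with a pseudocount of 1. Leaving out 1 animal gave 0.0812 to 0.123 for Col1a1 to Col3a1 in DOX+AICAR against saline. For Lox to Col1a1 it gave 0.69 to 0.92 in DOX+saline against saline and -0.51 to -0.29 in DOX+AICAR against DOX+saline. Fn1 to Col1a1 in DOX+AICAR against DOX+saline changed sign, from -0.13 to 0.15. The cause was not tested. Counting error was at most 5.98% for any of the 5 genes in any library; depth was not varied.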
